A study of Mus musculus with 180 samples.

Results

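Fetal liver haematopoietic stem cells (FL HSC) in which transcripts of Hoxb5 were found were set against FL HSC in which they were not. A cell was chosen for the first group when its deposited Hoxb5 value, in TPM (transcript abundance scaled to the same sum in every cell), reached 1, and for the second when it was below. Of the 180 cells of the series, 56 were FL HSC, of which 32 were with Hoxb5 and 24 without. The question was what else differed, over all other genes, between cells of 1 sorted population that had been parted by this gene.

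All FL HSC came from C57BL/6 embryos of Day14.5. They were sorted as lineage-negative CD45.2+ cells positive for Sca1, c-Kit, Mac1 (also called CD11b) and CD150. They carried 1 Hoxb5 LSL allele, in the study Rosa LSL-Hoxb5-EGFP/+, a Hoxb5 and EGFP cassette in the Rosa26 locus behind a stop that Cre recombinase removes. No Cre is named for these embryos. The adult BM HSC and WT-MPP, from mice 8 weeks old, carried the same allele and likewise no named Cre, while the donor-derived CD11b+CD48+SK cells came from primary recipients of Mx1cre MPP, in which pIpC had switched the cassette on, at week 8 after transplantation. These 3 populations held 36, 41 and 47 cells. They serve here only to show whether a difference in FL HSC had the same sign in cells that did not define it. The table gives 1 value for Hoxb5, so transcripts of the cassette and of the native gene cannot be told apart.

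Hoxb5 is a homeodomain transcription factor of the Hoxb cluster. Hox proteins bind short AT-rich sites, often together with the cofactors Pbx and Meis, and genes of the Hoxa and Hoxb clusters are active in stem and progenitor cells of the blood. In adult bone marrow Hoxb5 is known as a marker of long-term HSC. HSC of the mid-gestation fetal liver divide far more often than adult HSC, carry CD11b on their surface and express a set of fetal genes that is largely shut off after birth.

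In GENCODE vM21 (mm10), Hoxb5 lies on the forward strand at chr11:96303336-96306121, and its coding transcript has exons at chr11:96303512-96304175 and chr11:96304890-96306120. Hoxb5os, an antisense gene, spans the whole of it on the reverse strand at chr11:96291024-96306910. Whether the authors' counting used strand is not given in the sources used here, so transcripts of the 2 genes cannot be told apart where they overlap.

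Hoxb5 reached 1 TPM in 57.1% of FL HSC, with a 95% exact Clopper-Pearson interval of 43.2 to 70.3% that covers the counting of cells only. Among the 32 cells with Hoxb5 the lowest, median and highest values were 2.64, 36.1 and 102 TPM. Among the 24 cells without it, 22 stood at 0. Just inside the limit lay cells of 2.64, 2.76 and 3.29 TPM, and just outside it cells of 0.946 and 0.329 TPM. The limit therefore ran through a thinly filled stretch, and values within the group with Hoxb5 parted again into 10 cells between 2.64 and 11.7 TPM and 22 cells between 25.8 and 102 TPM. Since these values chose the groups, they are a description only.

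The share in FL HSC lay between those of the adult cells and of the CD11b+CD48+SK cells. It was 22.2% in BM HSC (8 of 36 cells, interval 10.1 to 39.2%), 17.1% in WT-MPP (7 of 41 cells, 7.15 to 32.1%) and 91.5% in CD11b+CD48+SK cells (43 of 47 cells, 79.6 to 97.6%). Where the gene was found, the median level was lowest in FL HSC at 36.1 TPM, beside 51.2 TPM in BM HSC, 69.1 TPM in WT-MPP and 77.4 TPM in CD11b+CD48+SK cells. Levels of neighbouring populations in this order overlapped over most of their ranges.

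**Figure D1:**
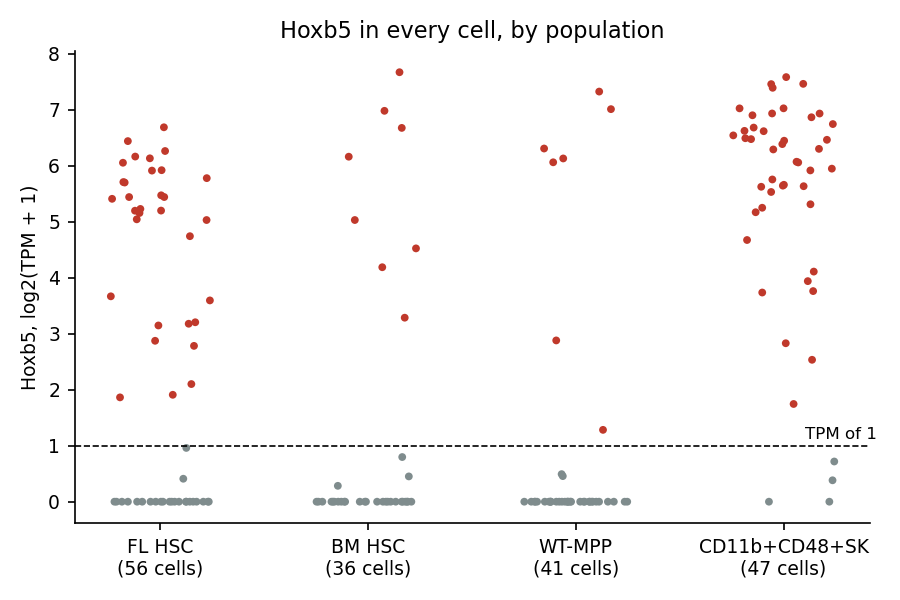
Level of Hoxb5 as log2(TPM+1) on the y axis in every cell of the 4 populations on the x axis, with red points at 1 TPM or above, grey points below and a dashed line at the limit. In FL HSC 32 cells lie above the line and 24 below, 22 of them at 0.

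No embryo is named for any FL HSC, so the 56 cells count as 1 sample. No test was made between the groups, no p-value was computed from cells, and an SD below is the spread over cells. How deeply each cell was sequenced is unknown, as TPM holds no counts. In its place stands the number of genes that reached 1 TPM, below called genes detected, which ran from 3974 over a median of 5294 to 6789 in cells with Hoxb5 and from 4149 over 5022.5 to 6208 in cells without. The median was thus 271.5 genes higher with Hoxb5, and the ranges overlapped almost in full. Xist alone was found in 17 cells, Y-linked genes alone in 15, neither in 24 and both in 0, so the cells came from more than 1 embryo. Hoxb5 was present in 10 of the 17 Xist cells (58.8%) and in 9 of the 15 cells with Y-linked transcripts (60%).

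The source of every FL HSC is given in the labels as bone marrow, while the cell type and protocol name fetal liver. Cnn3, a fetal-high calponin, was found (here and below, at 1 TPM or above) in 96.4% of FL HSC beside 11.1% of BM HSC. Hmga2, a chromatin protein of the fetal programme, was found in 82.1% beside 25%, and Igf2, a fetal growth factor, in 57.1% beside 2.78%. These shares go with the cell type label. Of markers of the sort, Ly6a (Sca1), Kit and Ptprc (CD45) were each found in more than 80% of FL HSC, Slamf1 (CD150) in 55.4% and Itgam (CD11b) in 16.1%.

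A few cells stood apart from the others. Of 12 listed macrophage genes, FL HSC cells 38, 42 and 52 held 4, 8 and 8, with summed levels of 682, 2999.6 and 929 TPM, and all 3 were without Hoxb5. The highest summed level in a cell with Hoxb5 was 303 TPM. FL HSC cell 50, also without Hoxb5, had the lowest median rank correlation with the other cells, 0.452, beside a median of 0.525 over cells. Counts over all genes and over the lists are also given without them.

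Of 14825 genes listed, 7962 other than Hoxb5 were found in at least 20% of all 56 FL HSC and were kept. For each, the difference was taken as the mean of log2(TPM+1) over cells with Hoxb5 minus the mean over cells without. This scale understates the change of genes at low levels. For most genes the means lay close together. The median difference was 0.00, the quartiles were -0.38 and 0.39, and 87.6% of genes differed by less than 1. Mean levels were at least 2 higher with Hoxb5 for 27 genes, or 0.339% of those kept, and at least 2 lower for 21 genes, or 0.264%. Past a difference of 1 there were 492 genes higher, 6.18%, and 496 lower, 6.23%. Higher and lower genes were therefore nearly equal in number at both sizes.

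The spread over cells was large beside these differences. The median SD of a gene was 2.49 among cells with Hoxb5 and 2.52 among cells without, and no gene of the 7962 had ranges that did not overlap between the groups. Of the 48 genes past 2, 40 were found in 40 to 80% of FL HSC, 7 in 20 to 40% and 1, Zfp467, in 80% or more. Among the 732 genes found in every FL HSC, only Hist1h2ap, at 1.10, and Hist1h2ao, at 1.03, passed 1. Both encode histone H2A and are near-identical in sequence, so their separate values are uncertain. The lowest of the 732 was Hspd1, the mitochondrial chaperonin, at -0.83. Leaving out the 3 cells with macrophage genes gave 63 genes past 2 (35 higher, 28 lower), and leaving out cell 50 gave 54 (26 higher, 28 lower).

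**Figure D2:**
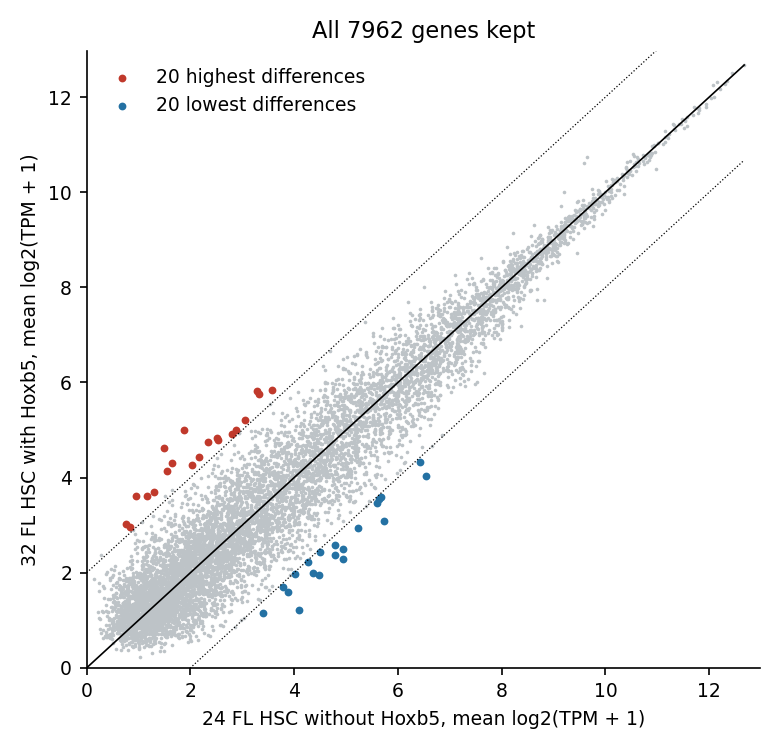
Mean log2(TPM+1) of each of the 7962 genes kept in the 24 FL HSC without Hoxb5 on the x axis and in the 32 with Hoxb5 on the y axis, with the line of equality and dotted lines at a difference of 2. Genes lie along the line of equality, with 27 above the upper dotted line and 21 below the lower one, and the 20 highest and 20 lowest differences are in red and blue.

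The genes of largest difference were named by a fixed rule, the 20 highest and the 20 lowest whose sign was the same after the number of genes detected was taken as a linear term. As they were chosen by these differences, their values are a description. At the head of the higher genes stood Pias1, which encodes a SUMO ligase, and Nadk, the kinase that makes NADP from NAD. Pias1 had a median of 55.4 TPM and a highest value of 218 TPM in cells with Hoxb5, and a median of 0 and a highest value of 135 TPM in cells without. It was found in 25 of 32 cells with Hoxb5 (78.1%, interval 60 to 90.7%) and in 6 of 24 without (25%, 9.77 to 46.7%). Its mean log2 level was 4.62 ± 2.63 (SD over 32 cells) against 1.48 ± 2.49 (SD over 24 cells), a difference of 3.13. Both groups held cells at 0, so Pias1 did not part them.

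Nadk had a median of 67.0 and a highest value of 213 TPM with Hoxb5, and 0 and 143 TPM without. It was present in 27 of 32 cells against 8 of 24, and its mean log2 levels of 5.01 ± 2.48 and 1.88 ± 2.83 differed by 3.13. Leaving out any 1 cell kept the difference of Nadk between 3.04 and 3.36 and that of Pias1 between 3.03 and 3.37.

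Next came Upf3a, a factor of nonsense-mediated decay, found in 21 of 32 cells against 6 of 24, with medians of 86.5 and 0 TPM and a difference of 2.67. Trmt11, which methylates tRNA, differed by 2.41 (24 against 10 cells), and Nsun4, which methylates mitochondrial rRNA, by 2.40 (21 against 5 cells). Pno1, needed to assemble the small ribosomal subunit, differed by 2.33, Cnot2 of the CCR4-NOT deadenylase by 2.28, Wars, the tryptophanyl-tRNA synthetase, by 2.12, and Cdc40, a splicing factor, by 2.12. Each of these genes was missing from some cells of both groups. Further, 0 of the 20 higher genes belonged to any of the 31 gene lists used below, which hold 602 of the 7962 genes kept.

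Zfp467, a zinc-finger gene, was the only one of the 20 found in every cell with Hoxb5. Its lowest, median and highest values there were 2.77, 67.0 and 187 TPM, while in cells without Hoxb5 they were 0, 15.2 and 292 TPM, and it was found in 13 of 24 cells. The difference was 2.44, and the highest value of all lay in a cell without Hoxb5. Cops7b of the COP9 signalosome differed by 2.59, Sla2, an adaptor of antigen-receptor signalling, by 2.55, and Sgms1, a sphingomyelin synthase, by 2.45. Hiatl1, Cmtm8, Glyr1, Fam181b, Lcmt1 and Crcp lay between 2.12 and 2.27.

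At the other end stood Mto1, which modifies mitochondrial tRNA. It was found in 7 of 32 cells with Hoxb5 (21.9%, 9.28 to 40%) and in 15 of 24 without (62.5%, 40.6 to 81.2%). Its median was 0 and its highest value 158 TPM with Hoxb5, against 53.6 and 236 TPM without. The mean log2 levels of 1.21 ± 2.31 and 4.09 ± 3.24 gave a difference of -2.88. Ppp2r1b, a scaffold subunit of the phosphatase PP2A, was found in 12 against 18 cells, with medians of 0.0818 and 75.1 TPM and a difference of -2.66. Actr1b, an actin-related protein of dynactin, differed by -2.64 and was found in 16 against 20 cells. Each of the 3 was present in part of both groups.

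Nfs1, the cysteine desulfurase of iron-sulfur cluster assembly, had medians of 56.3 and 131 TPM and differed by -2.51, although its highest value, 805 TPM, lay in a cell with Hoxb5. Lonp1, a mitochondrial protease, differed by -2.29, Dnajb9, a co-chaperone of the endoplasmic reticulum, by -2.20 and Creld2, a protein of the same compartment, by -2.11. S1pr1, a receptor for sphingosine-1-phosphate that guides cells between blood and tissue, was found in 6 of 32 cells with Hoxb5 and 14 of 24 without and differed by -2.23. Hdac10 (-2.53), Strn4 (-2.45), Tmem40 (-2.41), Pmm1 (-2.37), Wdyhv1 (-2.29), Stambp (-2.13) and Prkd2 (-2.10) were also among the 20. Rabl5, Elp3, Cpne1, Clasrp and Esyt1 lay between -2.09 and -2.04. None of the 20 lower genes was in any list.

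**Figure D3:**
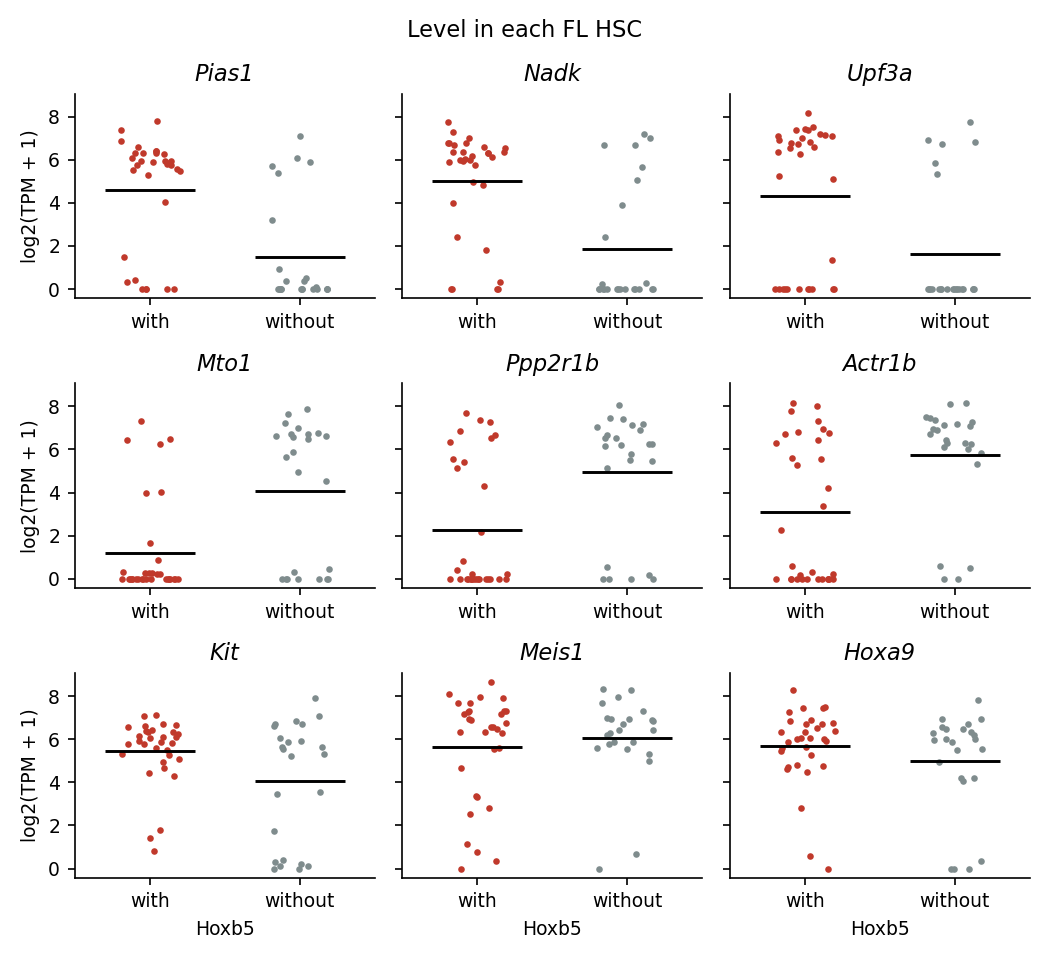
Level as log2(TPM+1) on the y axis in each FL HSC, with Hoxb5 in red and without in grey, for the 3 highest genes, the 3 lowest genes and Kit, Meis1 and Hoxa9, with a black line at the mean over cells. Both groups hold cells near 0 and cells at high levels for each of the 6 leading genes. The number of cells at each differs, as in 25 of 32 against 6 of 24 cells for Pias1. Among cells that held the gene, mean log2 levels differed by 0.32 (Pias1), 0.35 (Nadk) and 0.01 (Upf3a). For the lower genes they differed by -1.32 (Mto1), -0.60 (Ppp2r1b) and -0.72 (Actr1b).

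The share of cells that held the gene differed for each of the 40, and the level in those cells went the same way for most. Both enter the difference by which these genes were chosen, so their directions are a description. For the 20 higher genes the share of cells was 20.8 to 53.1 percentage points larger with Hoxb5, and for the 20 lower genes 19.8 to 40.6 points smaller. Among cells that held the gene, the mean log2 level of the higher genes differed by -0.55 to 1.33, with a median of 0.12, and was above 0 for 15 of the 20. For the lower genes it differed by -1.32 to 0.11, with a median of -0.72, and was above 0 for 1 of the 20. Pias1, for instance, had medians of 60.9 and 54.8 TPM in the cells that held it, and Mto1 of 76.5 and 98.2 TPM.

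The promoters of the 2 highest and 2 lowest genes are shown as those at the ends of the comparison. They run from 250 bases before to 50 after the start of a RefSeq transcript (GRCm38.p6), 5′ to 3′ on the gene's own strand, with CCAAT boxes of either strand in capitals. They lie at chr9:62980830-62981129 (reverse strand, Pias1), chr4:155562131-155562430 (forward, Nadk, the more upstream of its 2 promoters), chr9:78447960-78448259 (forward, Mto1) and chr9:50856674-50856973 (forward, Ppp2r1b).
Pias1: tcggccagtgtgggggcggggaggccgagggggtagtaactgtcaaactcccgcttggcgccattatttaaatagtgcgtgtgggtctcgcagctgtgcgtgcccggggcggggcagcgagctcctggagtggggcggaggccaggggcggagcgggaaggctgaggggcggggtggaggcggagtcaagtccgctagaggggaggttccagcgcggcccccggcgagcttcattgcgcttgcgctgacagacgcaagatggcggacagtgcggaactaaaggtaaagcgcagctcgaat
Nadk: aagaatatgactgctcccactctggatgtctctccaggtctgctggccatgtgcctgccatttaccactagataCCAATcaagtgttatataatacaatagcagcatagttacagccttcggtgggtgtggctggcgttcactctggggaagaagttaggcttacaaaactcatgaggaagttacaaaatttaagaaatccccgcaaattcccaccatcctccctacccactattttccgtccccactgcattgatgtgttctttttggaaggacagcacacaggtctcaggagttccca
Mto1: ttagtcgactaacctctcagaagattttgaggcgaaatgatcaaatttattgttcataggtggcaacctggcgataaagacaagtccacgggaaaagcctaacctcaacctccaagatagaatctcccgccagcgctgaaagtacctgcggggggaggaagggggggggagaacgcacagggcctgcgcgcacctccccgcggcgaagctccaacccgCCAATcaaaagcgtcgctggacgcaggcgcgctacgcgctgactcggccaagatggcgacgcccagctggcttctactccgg
Ppp2r1b: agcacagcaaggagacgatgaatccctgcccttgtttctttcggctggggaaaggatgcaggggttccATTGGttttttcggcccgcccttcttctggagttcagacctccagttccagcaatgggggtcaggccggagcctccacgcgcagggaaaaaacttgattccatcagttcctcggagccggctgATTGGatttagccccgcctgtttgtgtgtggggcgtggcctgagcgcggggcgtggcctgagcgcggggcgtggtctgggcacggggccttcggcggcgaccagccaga
The 4 promoters shown held neither TAATTA, a core bound by many homeodomains, nor TGATTNAT, a joint Hox and Pbx site, nor TATAAA, on either strand.

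Of the 20 higher genes 17 had a promoter in the RefSeq table, 24 promoters in all, and of the 20 lower genes 16, with 19 promoters. TAATTA was found in 1 of the 24 and 0 of the 19, beside 5.29% of all 32851 promoters of the same length. TGATTNAT was found in 0 of either, beside 3.22% of all. CCAAT stood in 8 of the 24 (33.3%) and 13 of the 19 (68.4%), beside 37.4% of all, and TATAAA in 4 of the 24 and 0 of the 19, beside 13.6%. The median GC content was 56.5% and 62.3%, beside 52.7% of all promoters. The promoters of all genes, 27025 in number, include genes that were not kept in FL HSC, while the leading genes were drawn from the 7962 kept. Shares over the promoters of kept genes alone were not counted. These contrasts therefore cannot be told apart from what sets kept genes apart from all genes. These are matches of letters in a window, and these data hold no measurement of binding.

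The rule used the Hoxb5 values to admit the 32 cells at 1 TPM, but not their order above that limit. The leading genes were chosen by the split of the same cells, so what follows is a description. Spearman's rho between the Hoxb5 level and the level of a leading gene was taken over those 32 cells. It is given without a p-value, since the cells share their library preparation and their sum of TPM. It was above 0 for 13 of the 20 higher genes and 8 of the 20 lower ones, beside 45.8% of all genes kept. Trmt11 had the largest, 0.60, and the median was 0.06 for the higher and -0.06 for the lower genes. Cells with more Hoxb5 thus held more of the higher genes in some cases and less in others.

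The same split was made in the other populations. Of the 20 genes higher in FL HSC with Hoxb5, 11 were also higher in BM HSC with Hoxb5 (8 against 28 cells), and of the 20 lower ones 6 were also lower, beside 50% of all genes with the same sign. In WT-MPP (7 against 34 cells) the counts were 11 and 8 of 20, beside 49%, and in CD11b+CD48+SK cells (43 against 4 cells) 13 and 6 of 20, beside 51.5%. These shares pool both signs. Over all genes the median difference was above 0, at 0.28 in BM HSC, 0.16 in WT-MPP and 0.25 in CD11b+CD48+SK cells. A higher sign was thus the more frequent one in each, and a share for each sign alone was not counted. Of the 20 higher genes 5 were higher with Hoxb5 in all 4 populations, namely Upf3a, Nadk, Hiatl1, Fam181b and Cdc40. Of the 20 lower genes 0 were lower in all 4. The share of all genes with the same sign in all 4 was not counted, so these counts stand without a background. Upf3a was higher by 2.67 in FL HSC, 2.71 in BM HSC, 2.24 in WT-MPP and 1.47 in CD11b+CD48+SK cells, and Nadk by 3.13, 1.94, 1.04 and 0.80. These genes were picked out after their values were seen. Stambp, lower by 2.13 in FL HSC, was higher by 4.93 in BM HSC, where 8 cells made up the group with Hoxb5. Over the 40 genes the sign in FL HSC was met in 42.5% in BM HSC and in 47.5% in each of the other 2 populations.

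**Figure D4:**
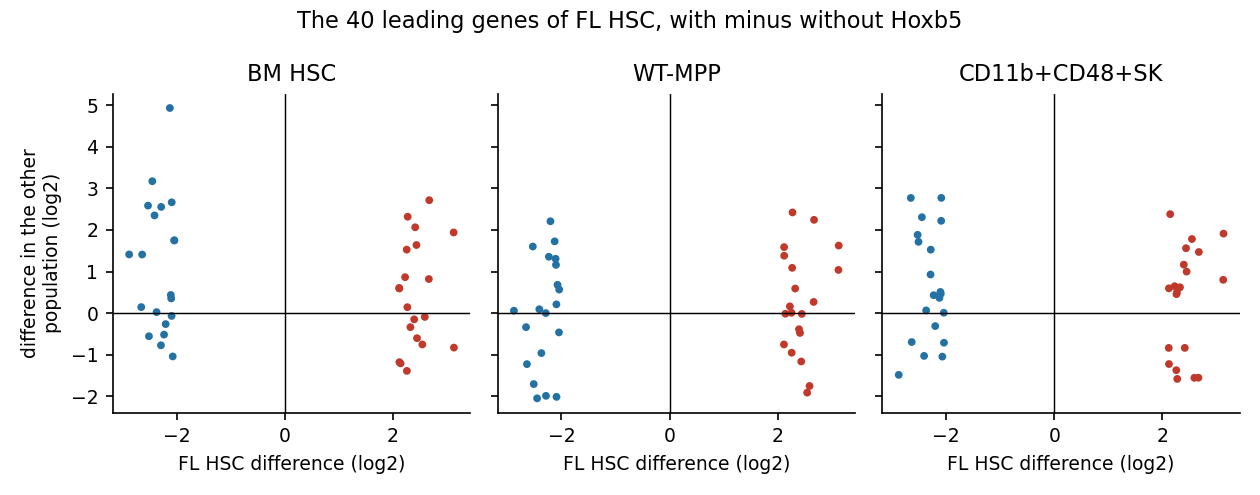
Difference in mean log2(TPM+1), with minus without Hoxb5, of the 40 leading genes in FL HSC on the x axis and in BM HSC, WT-MPP and CD11b+CD48+SK cells on the y axes, with genes higher in FL HSC in red and lower in blue. In each panel the red and the blue genes spread to both sides of 0 on the y axis, with the same sign as in FL HSC for 42.5% of the 40 in BM HSC.

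Within embryos of like sex the leading genes kept their sign in most cases. Of the 20 higher genes 17 were higher with Hoxb5 in the 17 Xist cells and 20 in the 15 cells with Y-linked transcripts, and of the 20 lower genes 19 and 20 were lower. The same cells chose the genes, so these counts are no independent support.

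At least 1 other Hoxb gene was found in 20 of the 32 cells with Hoxb5 (62.5%, 43.7 to 78.9%) and in 18 of the 24 without (75%, 53.3 to 90.2%), and the median was 1 such gene per cell in both. Hoxb2, the only other Hoxb gene that passed the filter, was found in 17 of 32 and 11 of 24 cells, with highest values of 123 and 106 TPM and a difference of 0.06, which ran from -0.30 to 0.39 over the alternatives. Cells with Hoxb5 thus did not stand out by other genes of its cluster. Hoxb4, known for expanding HSC when overexpressed, was found in 5 and 4 cells, and Hoxb3, next to it in the cluster, in 6 and 4. Hoxb6 was found in 6 and 2 cells, Hoxb7 in 2 and 1, Hoxb8 in 3 and 2, and Hoxb9 in 3 and 0. A count of 0 among 24 cells allows a share of up to 14.2%.

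Of the Hoxa genes, Hoxa9, a main regulator of HSC, was the most widely found, in 30 of 32 cells with Hoxb5 and 20 of 24 without. Its medians of 64.4 and 62.0 TPM were close, its ranges of 0 to 309.9 and 0 to 223 TPM overlapped, and the means differed by 0.72. Hoxa7 was found in 26 and 17 cells (0.37) and Hoxa10 in 17 and 11 (0.14), and over the alternatives these ran from -0.44 to 0.65 and from -0.15 to 0.68. Hoxa5 was found in 17 and 15 cells, with medians of 2.19 and 21.7 TPM, and was lower by 0.86 with Hoxb5. None of these passed a difference of 1.

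Among the cofactors, Meis1 had medians of 93.8 and 83.8 TPM, was found in 29 and 22 cells and differed by -0.43, which turned to 0.61 with a Hoxb5 limit of 10 TPM. Pbx2 (7 and 6 cells, -0.03) and Pbx4 (12 and 9 cells, 0.03) were found in fewer cells, and their signs also changed with the settings. Regulators that act on Hox loci, the MLL and Polycomb groups among them, had 18 kept genes with a median difference of -0.01 and none past 1, beside 12.4% of all genes kept. Men1, the menin that binds MLL, at 0.64 although its median was lower with Hoxb5 (103 against 109 TPM), and Ring1, a Polycomb ubiquitin ligase, at 0.61, were the highest of them.

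Among the genes listed as sort markers, Kit, the stem cell factor receptor, differed most. That list also holds Cd34, Flt3 and Cd48, which are not part of the FL HSC sort given above. Its lowest, median and highest values were 0.745, 59.0 and 136 TPM with Hoxb5, and 0, 41.7 and 240.3 TPM without. It was found in 31 of 32 cells (96.9%, 83.8 to 99.9%) against 17 of 24 (70.8%, 48.9 to 87.4%), and the means differed by 1.44. The difference was 0.24 with the log2 of the mean TPM and 0.78 when any Hoxb5 above 0 counted as present. Kit also differed by 2.56 within the Xist cells and by 0.49 within those with Y-linked transcripts. All cells had been sorted for c-Kit protein on their surface. Ly6a was found in 30 and 21 cells (0.43), Cd34 in 30 and 23 (-0.48), Ptprc in 26 and 20 (-0.29), Slamf1 in 18 and 13 (-0.03) and Flt3, a receptor of multipotent progenitors, in 19 and 11 (0.39). With a Hoxb5 limit of 10 TPM Ly6a turned to -0.35 and Ptprc to 0.76, and Slamf1 ran from -0.74 to 0.22 over the alternatives. Itgam was found in 6 and 3 cells and Cd48 in 6 and 4, too few to pass the filter.

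Of 46 kept HSC genes, 20 were higher with Hoxb5, 3 by 1 or more and 0 by 2, the median difference was -0.03, and 2 were lower by 1 or more. Beside the 6.18% and 6.23% of all genes kept that passed 1 in each direction, these counts are near the background. Ndn, the imprinted growth suppressor necdin, was highest, found in 29 of 32 and 15 of 24 cells with medians of 151 and 78.8 TPM and a difference of 1.98, or 0.52 with the log2 of the mean TPM. It differed by 4.20 within the Xist cells and by 0.52 within those with Y-linked transcripts. Nkx2-3 differed by 1.27, and Cdkn1c, an inhibitor of cyclin-dependent kinases, by 1.04 although its median was lower with Hoxb5 (157 against 231 TPM). Gfi1b, a transcriptional repressor that acts in the erythroid and platelet lineages, was lower by 1.04 and Emcn, a surface sialomucin, by 1.03. Of other members, Mecom was at 0.21, Procr at 0.27 and Hlf at -0.14.

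The 11 kept fetal genes had a median difference of -0.10, and 5 of them, H19 included, were higher with Hoxb5. H19, an imprinted RNA of the fetus, was the only one past 1, beside 12.4% of all genes kept, and was found in 24 of 32 and 13 of 24 cells with medians of 42.7 and 4.19 TPM and a difference of 1.66. Hmga2 (-0.10), Igf2 (-0.20), Igf2bp1 (-0.26) and Cnn3 (-0.58) stood lower or near 0.

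The medians of the replication and mitosis lists had opposite signs. The 59 kept DNA replication genes had a median difference of -0.29, and 18 of them were higher with Hoxb5. Pcna, the sliding clamp of the replication fork, had medians of 293 and 415 TPM and was lower by 1.08, Cdc7, the kinase that fires origins, was lower by 1.21, and Pole, the catalytic subunit of polymerase epsilon, was higher by 1.25. The 60 mitosis genes had a median of 0.26, and 45 were higher, with Cenpp at 1.10, Prc1 at 1.05 and Plk1 at 1.03. No member of either list passed 2. By 1 or more, 2 replication genes were higher and 4 lower, and 3 mitosis genes were higher and 0 lower. Of all genes kept, 6.18% were higher and 6.23% lower by 1 or more, and their median difference was 0.00. With the number of genes detected as a linear term the medians were -0.43 and 0.15, and over all alternatives they ran from -0.56 to -0.25 and from 0.01 to 0.45. The mean level of the replication list per cell had a median of 3.88 with Hoxb5 and 3.66 without on the log2 scale, the other way from the median over genes.

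The mean log2 level of the mitosis list was 4 or more in 9 of 32 cells with Hoxb5 (28.1%, 13.7 to 46.7%) and in 6 of 24 without (25%, 9.77 to 46.7%), a limit set after the values were seen. A further cell without Hoxb5 stood at 3.98, just under the limit, and with it the order of the shares turns. Mki67, a marker of cycling cells, was found in 8 and 5 cells. The shares of cells in which mitotic genes were high thus have no settled order.

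Of the genes of replication and division that the study names, none passed 1. Birc5, which encodes survivin, was found in 11 of 32 (34.4%, 18.6 to 53.2%) and 10 of 24 cells (41.7%, 22.1 to 63.4%) and differed by -0.18. Gmnn, the inhibitor of replication licensing, differed by 0.18 and Cdt1, the licensing factor it binds, by -0.38, with Cdt1 in 20 and 15 cells. Over the alternatives Birc5 ran from -0.64 to 0.31 and Gmnn from -0.51 to 0.56. Cdc45 (-0.71) and Gins1 (-0.43), parts of the replicative helicase, and Mybl2 (-0.37), a transcription factor of cycling cells, had lower means. Cdk6 was found in 7 and 4 cells, Satb1 in 6 and 5, and Runx3 in 0 and 2, where 0 of 32 cells allows a share of up to 10.9%.

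Over all 31 lists there were 602 kept members, of which 0 passed a difference of 2 and 50, or 8.31%, passed 1, beside 12.4% of all genes kept. Without the 3 cells with macrophage genes 2 members passed 2, Ndn at 2.22 and Oasl2 at 2.02, and 8.80% passed 1, beside 14.2% of all. Without cell 50 it was 0 members and 9.63%, beside 12.7%. The 20 lists with at least 10 kept genes had medians from -0.32, for G1 cyclins and kinases, to 0.31, for lymphoid genes, beside 0.00 over all genes. Of the 16 genes of the G1 list, 6 were higher with Hoxb5. By 1 or more, 2 of them were higher and 0 lower, with members from -0.83 (E2f3) to 1.05 (Myb). The mean level of a list per cell had its median on the other side for 10 of the 20 lists, as for interferon-stimulated genes with 4.18 with Hoxb5 and 4.35 without on the log2 scale. The interferon-stimulated list had a median of 0.25 over 29 genes, which ran from 0.02 to 0.60 over the alternatives, with Oasl2, an antiviral gene of the OAS family, at 1.83 (18 of 32 and 8 of 24 cells). Ribosome biogenesis had -0.19 over 50 genes, of which 2 were higher and 4 lower by 1 or more. Its lowest member was Rrs1, needed for the large subunit, at -1.67, and its highest was Wdr74. Immediate early genes had 0.13 over 19 genes, although -0.03 without the 3 cells with macrophage genes. By 1 or more, 3 of them were higher, with Jun at 1.26 and Dusp1, a phosphatase of MAP kinases, at 1.25. In the other direction 1 was lower, Btg2 at -1.15. The 80 cytosolic ribosomal protein genes had -0.03 and the 75 respiratory chain genes -0.05, and neither list held a member past 1. Over the alternative settings the medians of 5 lists stayed below 0 (DNA replication, G1 cyclins and kinases, ribosome biogenesis, glycolysis, respiratory chain). Those of 5 stayed above 0 (mitosis, interferon-stimulated, lymphoid, myeloid, cytokine receptors), while those of the other 10 crossed 0. The mean level per cell was not among these settings, and by it several of these lists turned. Its median was higher with Hoxb5 for DNA replication (3.88 against 3.66) and G1 cyclins and kinases (4.950 against 4.945). The same held for ribosome biogenesis (5.01 against 4.90) and the respiratory chain (8.63 against 8.60). Their directions are therefore not settled.

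**Figure D5:**
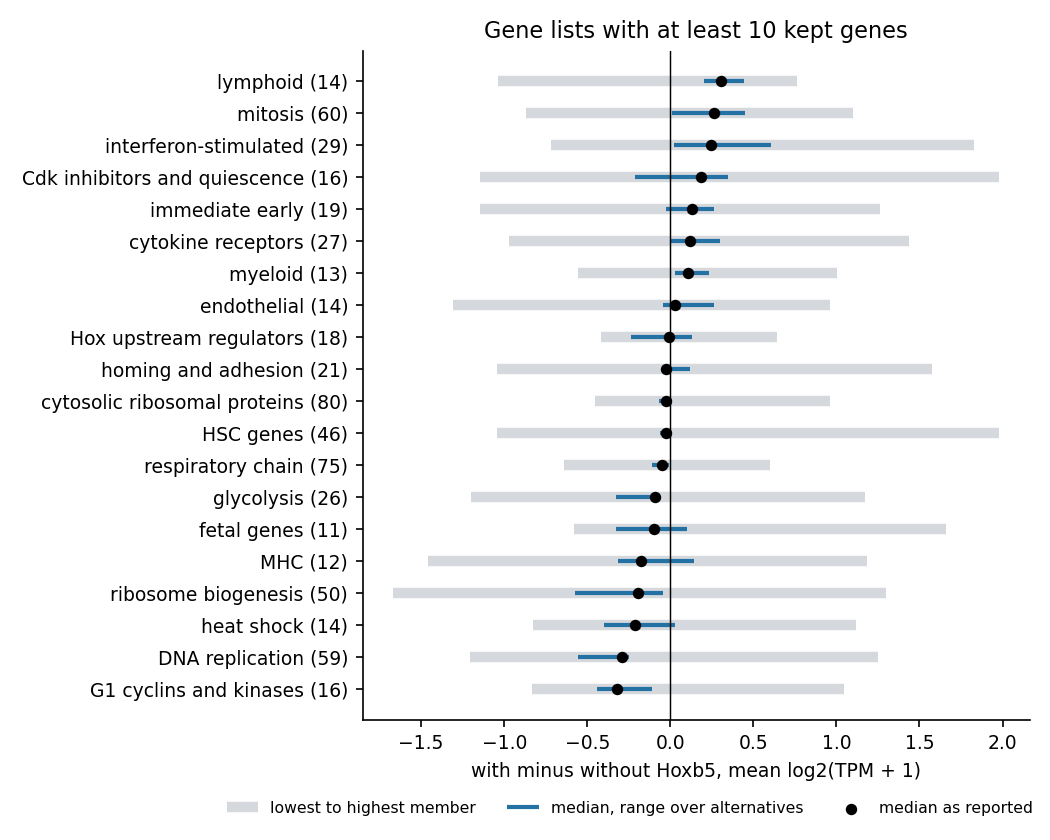
Difference in mean log2(TPM+1), with minus without Hoxb5, on the x axis for the 20 gene lists with at least 10 kept genes on the y axis (number of kept genes in brackets). Black points are medians, blue bars their range over the alternative settings, and grey bars run from the lowest to the highest member; medians lie between -0.32 and 0.31.

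Among the lists for other lineages, lymphoid genes had the highest median and megakaryocyte genes the lowest. The 14 lymphoid genes had a median of 0.31, led by Ikzf1, the Ikaros factor of lymphoid priming, at 0.76, while Cd79b of the B-cell receptor was lower by 1.04. The 13 myeloid genes had 0.11 and the 14 endothelial genes 0.03. Of the endothelial genes 8 were higher with Hoxb5, with Ramp2 highest at 0.96. The lowest was Pecam1, an adhesion molecule also carried by HSC, at -1.31. The 7 kept erythroid genes had 0.02, with Hbb-b1, a beta globin, in 32 of 32 and 23 of 24 cells. Of the megakaryocyte list 4 genes passed the filter, with a median of -0.69, among them Vwf (6 of 32 and 9 of 24 cells, -0.96) and Pf4 (12 and 11 cells, -0.79). The 3 kept hepatic genes had -0.11. No macrophage gene passed the filter, and the summed level of the list had a median of 0 TPM in both groups.

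On whole profiles the groups lay among each other. Among the 10 nearest cells of a cell with Hoxb5, 58.4% also had Hoxb5, beside 56.4% of all other cells, and for cells without it the values were 39.2% and 41.8%. The median rank correlation was 0.515 between cells with Hoxb5, 0.520 between cells without and 0.518 across the groups. On the leading principal component, which held 5.67% of the variance, cells with Hoxb5 ran from -47.9 to 64.5 and cells without from -45.3 to 55.5.

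The level of Hoxb5 within the 32 cells that had it was also set against the lists. Spearman's rho with the mean level of a list, over 32 cells that share their preparation and sum of TPM, was below 0 for 12 of the 20 lists. It was -0.59 for ribosome biogenesis, -0.56 for the respiratory chain, -0.45 for heat shock genes and -0.35 for DNA replication, and 0.25 for HSC genes. The number of genes detected had a rho of -0.28 with the Hoxb5 level in the same cells, and over all 56 cells a rho of 0.42 with ribosome biogenesis and 0.44 with the respiratory chain. With DNA replication its rho was 0.67. Taking it into account left partial values of -0.54 for ribosome biogenesis, -0.51 for the respiratory chain, -0.39 for heat shock genes and -0.22 for DNA replication, and its remaining part in them was not tested.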

How the data were processed

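Single FL HSC, BM HSC, WT-MPP and CD11b+CD48+SK cells were sorted, and cDNA was amplified and sequenced by the authors, 1 library per cell. The submitters' processing notes name bcl2fastq, HISAT2 2.1.0, SAMtools 0.1.19, StringTie 1.3.4 and mm10, and the annotation is not given in the sources used here. The deposited values are TPM, which the authors estimated per gene and which sum to the same total in every cell. Of 181 columns of cells, 1 had no sample and was not used. No cells were filtered out, and doublets were not sought, since each library came from 1 sorted cell.

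Groups were formed at a Hoxb5 TPM of 1. Genes that reached 1 TPM in at least 20% of FL HSC were kept, values were taken as log2(TPM+1), and differences of means were called by a size of 2. With 1 sample there was no test. Shares have 95% exact Clopper-Pearson intervals. TPM holds no counts, so depth is unknown and a gene at 0 was not detected rather than absent. Genes named were the 20 highest and 20 lowest with the same sign under a linear term for genes detected, Hoxb5, sort markers, Hox genes and cofactors, genes the study names and up to 4 of each of 31 hand-written lists, with other members added after their values were seen. Members and lists were chosen with earlier results of these data known. Neighbours were the 10 nearest cells in 10 principal components of the 2000 most variable genes. Alternatives covered the pseudocount, averaging, Hoxb5 limit, filter, scaling, genes detected and left-out cells. The differences were checked on simulated data. Promoters came from RefSeq (GRCm38.p6). A few named genes are not reported here. Python 3.11.15, numpy 2.4.6, pandas 2.3.3, scipy 1.17.1 and matplotlib 3.10.9 were used.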

Additional observations from a re-analysis of the deposited data

How the results depend on the processing

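The count of genes past a difference of 2 depended on the pseudocount, with 373 genes (200 higher, 173 lower) at 0.1 and 0 at 10, against 48 (27 higher, 21 lower) as reported. It depended more on the size required, as at a size of 1 there were 988 (492 and 496). Keeping genes found in at least 50% of FL HSC gave 17 higher, and a Hoxb5 limit of 10 TPM gave 37 lower. The other alternatives gave 49 to 63 genes in all, except the 50% filter with 33. The largest list median in size, 0.32 as reported, was 0.60 with the log2 of the mean TPM and 0.57 with a Hoxb5 limit of 10 TPM. Of the 40 leading genes none turned its sign under any alternative. They had been chosen for the largest differences and for keeping their sign with genes detected as a linear term. Their choice thus largely fixed this outcome, which is no support for them. Of their 440 values 147 moved by 0.5 or more. Among these were all 40 genes under each other pseudocount and 36 under the log2 of the mean TPM. Of 85 named genes differing by 1 or more, these 40 included, Cdkn1c alone changed sign, to -0.065 with the log2 of the mean TPM. Of 64 that differed by less, 26 changed sign under at least 1 alternative, Meis1 for one to 0.61 and Hoxa7 to -0.44 with a Hoxb5 limit of 10 TPM. Alternatives that leave out the 3 cells with macrophage genes or the cell of lowest correlation were chosen after the data were seen. No paired analysis was possible because no embryo is named and a replicate number stands for a single cell, which falls in 1 group only. With 1 sample and unknown depth, differences between embryos and failed detection cannot be told apart from differences that go with Hoxb5.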
